A study of Macaca fascicularis with 34 samples.

Results

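Transcripts of genes for histone variants and linker histones were followed through early development of the cynomolgus monkey (Macaca fascicularis), in single cells taken around the time when primordial germ cells form and then settle in the gonad. The family was set as 9 genes among the 28551 of the deposited table, each found by its human symbol on 1 row, and 8 of them are described here: H2AFY, H2AFY2, H2AFZ, H2AFV, H2AFX, H3F3A, H3F3B and H1FX. They were chosen by family, with the strong stage pattern of H2AFY already known, so the levels of H2AFY by stage are given as a description. The other 54 histone genes of the table serve as a comparison. The cells number 34, each sequenced as 1 library: 9 from male gonads, of which 6 were taken at embryonic day (E) 36, 1 at E47 and 2 at E55, and 25 from embryos, of which 3 were taken at E13, 1 at E14, 11 at E16, 2 at E17 and 8 at E20. No treatment or genetic change is named, all cells are labelled with the subspecies fascicularis, and the sex of the embryos is not given. The labels name tissue and day but no cell type and no animal. Cell numbers are names only.

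Nucleosomes made during DNA replication hold canonical histones, whose messages mostly lack poly(A) tails and come from clustered genes. Variant histones come mostly from single genes with polyadenylated messages and are placed outside replication as well. MacroH2A (H2AFY and H2AFY2) carries a large extra domain and is known from the inactive X chromosome and other silent chromatin, H2A.Z (H2AFZ and H2AFV) from nucleosomes beside promoters, H2A.X (H2AFX) from the marking of DNA breaks, and H3.3 (H3F3A and H3F3B) from active genes and from heterochromatin at chromosome ends. Linker histones bind the DNA that enters and leaves a nucleosome, and H1.10 (H1FX) is one of them. Germ cells remodel their chromatin widely after they are specified, and in mice linker histones are lost from their nuclei for a time.

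Levels are given in RPM, the reads of a gene scaled to a common total in each cell, counted at the 3′ ends of transcripts. Since each stage stands as 1 sample, values over cells are means ± SD with the number of cells, the SD is the spread between cells, and no difference was tested. A difference is that of mean log2(RPM + 1), and a gene counts as higher or lower where this is at least 1, or 2-fold, among genes whose mean reached 15 RPM in either group. Exact Poisson intervals at 95% on summed reads cover counting error only, since no molecular identifiers mark copies made when the cDNA was amplified. Depth lay between 472189 and 3556592 reads per cell and was lowest at E13, where the deepest cell held 775709 reads.

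The cells of a stage are not alike, and this bears on every result below. Clustering without the 9 genes placed 8 cells, E16 cell 8 and E20 cells 1 to 7, in a cluster led by the presomitic mesoderm factor MSGN1, the matrix gene HAPLN1 and WNT3A, which is called cluster 2 here. Its cells held 6 to 11 of 12 mesoderm markers at 15 RPM or more, and 2 to 9 of 12 germ cell markers. E16 cell 8 also held all 8 endoderm markers, with a summed level of 5138 RPM. The remaining 26 cells, cluster 1, held 8 to 12 of the germ cell markers and 1 to 8 of the mesoderm markers. Of 8 amnion, 8 trophoblast and 6 blood and endothelium markers, the cells of cluster 2 held 1 to 5, 0 to 4 and 1 to 3. Those of cluster 1 held 1 to 4, 0 to 2 and 0 to 2. In E20 cell 1, 3 blood and endothelium markers reached 15 RPM and the list summed to 2447 RPM, and E20 cell 3 held 5 amnion and 4 trophoblast markers. Cluster 1 was given no cell type name, because the genes with the largest fold in it were INSL3 and CYP17A1, hormone genes of the somatic testis, which averaged 604 and 118 RPM over its cells and come mainly from the E47 cell. In the gonad, E36 cells 1 and 5, E47 cell 1 and E55 cell 2 held 3, 6, 10 and 4 of 12 gonadal somatic markers at 15 RPM, and the summed level of that list ran from 162 to 21242 RPM in them, against 2.50 to 100 RPM in the remaining 22 cells of cluster 1. These 4 are the gonad cells said below to hold somatic markers, the bound being 3 or more. The remaining 22 cells were not free of them and held 0 to 2 of the list. Cluster and stage also run with the codes in the sample titles: E20 cells 1 to 7 carry MS08, E20 cell 8 and the E16 cells MS09, E13 MS10, E14 MS13, and the E17 and gonad cells MS11. What the codes stand for is not stated.

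H2AFY, the gene for macroH2A1 (chromosome 6 in the table), had a few reads or none in most cells and more than 100 RPM in 11. The 3 E13 cells had 0, 12.9 and 0 RPM, and the E14 cell 1.73 RPM. At E16 the lowest, median and highest of 11 cells were 0, 1.02 and 143 RPM, with a second highest of 35.2 RPM. The E17 cells had 0 and 151 RPM, which set them on either side of that gap. At E20 the lowest, median and highest of 8 cells were 1.84, 181 and 413 RPM, and the next lowest was 169 RPM. At E36 they were 0, 0.860 and 114 RPM, with 5 of the 6 cells at 1.24 RPM or less. The E47 cell had 266 RPM, and the E55 cells 1.02 and 23.2 RPM. No cell lay between 35.2 and 114 RPM, although cells at 9.56, 12.9, 23.2 and 35.2 RPM stood above the other low cells, which had 1.84 RPM or less.

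By mean log2(RPM + 1), the stages ran from E13 (1.27 ± 2.19, SD), E14 (1.45), E36 (1.70 ± 2.56), E16 (1.93 ± 2.33), E55 (2.81 ± 2.53) and E17 (3.62 ± 5.12) to E20 (7.11 ± 2.32) and E47 (8.06). Every pair of neighbours in this order differed by less than the larger SD of the pair where one could be computed. E14 and E47 are 1 cell each.

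**Figure D1:**
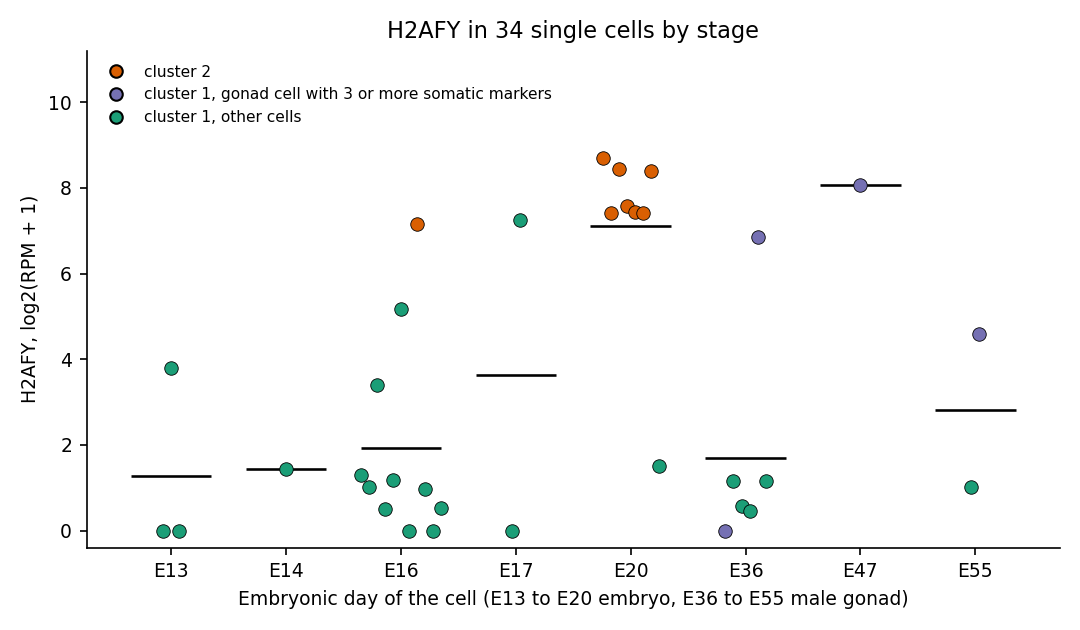
Level of H2AFY as log2(RPM + 1) in each of 34 single cells by embryonic day, with a bar at the mean of each stage. Colours mark cluster 2 (8 cells), gonad cells of cluster 1 with 3 or more gonadal somatic markers (4 cells) and the other cells of cluster 1 (22 cells). E20 cells 1 to 7 and E16 cell 8 sit at 143 RPM or more, and E20 cell 8 sits at 1.84 RPM among the low cells.

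The 11 cells above 100 RPM were the 8 cells of cluster 2, E17 cell 2, E36 cell 5 and E47 cell 1. In these 11 cells, 8 to 12 of the 24 mesoderm and gonadal somatic markers reached 15 RPM, and in the other 23 cells 1 to 7. The bound of 100 RPM and the sum of both marker lists were chosen after the values were seen. Not all listed markers ran with cluster 2: the mesoderm marker GATA4 had a median of 114 RPM in cluster 1 and 30.5 RPM in cluster 2. MIXL1 had medians of 17.6 and 14.3 RPM but means of 31.9 and 154 RPM in the same order. The mesoderm list also holds VCAN, which is named below among the genes most like H2AFY. E17 cell 2 held 8 mesoderm markers with a summed level of 892 RPM, the highest in cluster 1, beside 9 germ cell markers and 3 of 8 endoderm markers that summed to 1328 RPM. The correspondence has exceptions in level: E36 cell 1, with 3 gonadal somatic markers, had 0 RPM of H2AFY, and E55 cell 2, with 4, had 23.2 RPM. All 11 high cells also held germ cell markers, from 2 to 12 of 12. Whether a library held RNA of more than 1 cell was not tested.

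**Figure D2:**
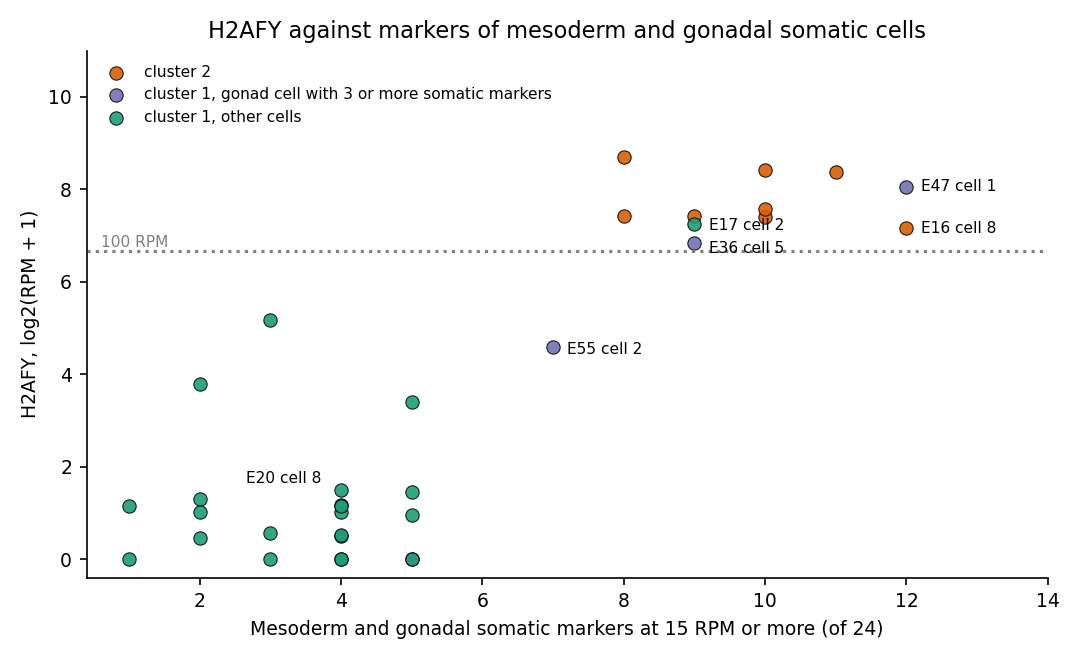
Level of H2AFY as log2(RPM + 1) against the number of mesoderm and gonadal somatic markers (of 24) at 15 RPM or more, 1 point per cell, with the same colours by cluster. The 11 cells above the dotted line at 100 RPM hold 8 to 12 of the markers, and the 23 cells below it hold 1 to 7.

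Reads summed over cluster 1, without the 4 gonad cells that held somatic markers, gave 5.27 RPM at E13 (interval 2.53 to 9.69), 1.73 RPM in the E14 cell, 4.66 RPM in 10 E16 cells (3.85 to 5.59), 1.84 RPM in E20 cell 8, 0.639 RPM in 4 E36 cells (0.174 to 1.64) and 1.02 RPM in E55 cell 1. Of the 116 reads behind the E16 value, most came from E16 cells 3 and 6, at 9.56 and 35.2 RPM. Over the 21 cells of this kind other than E17 cell 2, the summed level was 3.35 RPM (2.82 to 3.96). E20 cells 1 to 7 stood at 258 RPM (248 to 268). Reads at the 3′ end of the gene do not separate the macroH2A1 isoforms, which arise from alternative exons inside it.

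E20 cells averaged 224 ± 132 RPM of H2AFY (SD, n = 8 cells) and E16 cells 17.5 ± 42.8 RPM (n = 11), a difference of 5.18 on the log2 scale and a ratio of 12.8 in mean RPM. The cells overlapped only through E20 cell 8, at 1.84 RPM. The other E20 cells had 169 RPM or more, above the highest E16 cell, E16 cell 8, at 143 RPM. With the cells of cluster 1 at E16 and cluster 2 at E20 alone, the difference was 6.50. Inside the code MS09, which holds E20 cell 8 and all E16 cells, it was -0.42. High and low cells of H2AFY therefore occurred within 1 code, both in MS09 and in MS11. Gonad cells averaged 45.2 ± 90.6 RPM (n = 9) and embryo cells 86.1 ± 126 RPM (n = 25), a difference of -0.97 that is just under 2-fold. This value rested on which cells entered: it was -2.75 without the 4 gonad cells with somatic markers, -1.65 without E47 cell 1, -1.49 without E36 cell 5, 0.67 without the E20 cells and 1.0024 within cluster 1. Within the code MS11 it was -0.97. Leaving out any 1 of 16 cells carried it past 2-fold.

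H2AFY2 encodes macroH2A2 (chromosome 9), the second macroH2A, and its levels did not follow those of H2AFY. The E13 cells had 4.24, 7.73 and 7.69 RPM and the E14 cell 1.299 RPM. At E16 the lowest, median and highest were 0, 33.1 and 83.7 RPM, and the E17 cells had 0 and 38.9 RPM. At E20 they were 0, 36.2 and 86.5 RPM, and at E36 0, 5.603 and 41.6 RPM. The E47 cell had 32.7 RPM and the E55 cells 31.8 and 2.90 RPM. E16 cells with hardly any H2AFY thus reached the same range of H2AFY2 as E20 cells with much of it. The E16 cells of cluster 1 averaged 34.8 ± 29.97 RPM (n = 10) and the E13 cells 6.55 ± 2.01 RPM (n = 3), a difference of 1.44. All E13 cells lay under 15 RPM, and 7 of the 10 E16 cells lay at or above it. In that comparison 23.6% of 8663 genes were at least 2-fold higher and 21.7% at least 2-fold lower.

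Against the E16 cells of cluster 1, the E36 cells had less H2AFY2, at 13.3 ± 17.5 RPM (n = 6) and 34.8 ± 29.97 RPM at E16, a difference of -2.01. Of the 6 E36 cells 3 had 0 RPM, and 1 of the 10 E16 cells did. The 4 E36 cells with fewer than 3 somatic markers held 20.8 RPM in summed reads (17.3 to 24.7), against 32.2 RPM (29.97 to 34.5) in the E16 cells. Gonad cells as a whole averaged 16.4 ± 16.8 RPM and embryo cells 29.7 ± 29.0 RPM, a difference of -1.01 that fell under 2-fold when any 1 of 16 cells was left out (-0.96 to -0.65). Inside the code MS11, gonad cells against the E17 cells, it was 0.22. The E20 cells (37.5 ± 33.8 RPM) and the E16 cells (34.7 ± 28.4 RPM) differed by -0.15.

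The H2A.Z genes had reads in every cell. H2AFZ (chromosome 5) had 1466, 1292 and 1375 RPM in the E13 cells and 1107 RPM in the E14 cell. The lowest, median and highest were 668, 1305 and 2611 RPM at E16, 416, 990 and 1749 RPM at E20, and 387, 585 and 1197 RPM at E36. The E17 cells had 159 and 1214 RPM, the E47 cell 307 RPM, and the E55 cells 402 and 730 RPM. Levels were therefore highest at E13 and E16 and lower in the gonad. Gonad cells averaged 598 ± 282 RPM (n = 9) and embryo cells 1250 ± 536 RPM (n = 25), a difference of -1.02. The ranges overlapped, and the call at 2-fold was lost when any 1 of 11 cells was left out (-0.995 to -0.913). Within cluster 1 the difference was -1.01, and within the code MS11 0.31, where 1 of the 2 E17 cells is the lowest of the 34. Between the E36 cells (658 ± 308 RPM) and the E16 cells of cluster 1 (1469 ± 602 RPM) it was -1.17, and -1.51 without the 2 E36 cells that held somatic markers.

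H2AFV (chromosome 3), the second H2A.Z gene, stayed within a narrower range. Its stage means were 303 ± 58.5 RPM at E13, 149 RPM at E14, 364 ± 163 RPM at E16, 225 ± 182 RPM at E17, 334 ± 190 RPM at E20, 300 ± 111 RPM at E36, 372 RPM at E47 and 321 ± 87.1 RPM at E55. Gonad cells averaged 313 ± 96.0 RPM and embryo cells 327 ± 162 RPM, a difference of 0.06. Because H2AFZ was lower in the gonad and H2AFV was not, the make-up of H2A.Z reads differed: H2AFZ supplied 64.1 ± 10.3% of the reads of both genes in gonad cells and 78.7 ± 6.8% in embryo cells. The share was lowest in the E47 cell, at 45.3%. In the 2 E17 cells, embryo cells that carry the code MS11 of the gonad cells, it was 69.9 ± 10.6%. These shares are of 3′ reads, and reads of processed copies of H2AFZ in the genome could be counted with it or dropped, so the split between genes carries that uncertainty.

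H2AFX (chromosome 14), whose product is phosphorylated along chromatin at DNA breaks, had its highest levels at E20. The E13 cells had 216, 72.2 and 188 RPM and the E14 cell 134 RPM. The lowest, median and highest were 3.38, 62.8 and 193 RPM at E16 and 25.3, 414 and 720 RPM at E20, while the E17 cells had 1.12 and 174 RPM. In the gonad they were 0.489, 50.04 and 449 RPM at E36, with 63.5 RPM at E47 and 0 and 103 RPM at E55. Of the 34 cells, 7 had 300 RPM or more, namely 6 of the E20 cells of cluster 2 and E36 cell 5. Reads were also common outside these cells: E20 cell 8, at the low end for H2AFY, had 167 RPM.

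E20 cells averaged 387 ± 212 RPM of H2AFX and E16 cells 76.2 ± 62.5 RPM, a difference of 2.52. The ranges overlapped through E20 cell 5, at 25.3 RPM, while the other 7 E20 cells had 167 RPM or more and 2 of the 11 E16 cells did. Within the code MS09 the difference was 1.73. Gonad cells averaged 97.2 ± 140 RPM and embryo cells 189 ± 189 RPM, a difference of -1.65. It was -3.43 without the gonad cells with somatic markers, -0.90 without the E20 cells and 0.67 within the code MS11. The E16 cells of cluster 1 (66.8 ± 57.1 RPM) had less than the E13 cells (159 ± 76.2 RPM), with a difference of -1.69. E36 and E16 cells of cluster 1 differed by -0.19 in mean log2 while E36 had the higher mean, at 118 ± 170 RPM and 66.8 ± 57.1 RPM at E16. E36 cell 5 carried that mean, and without the 2 E36 cells that held somatic markers the difference was -1.53.

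**Figure D3:**
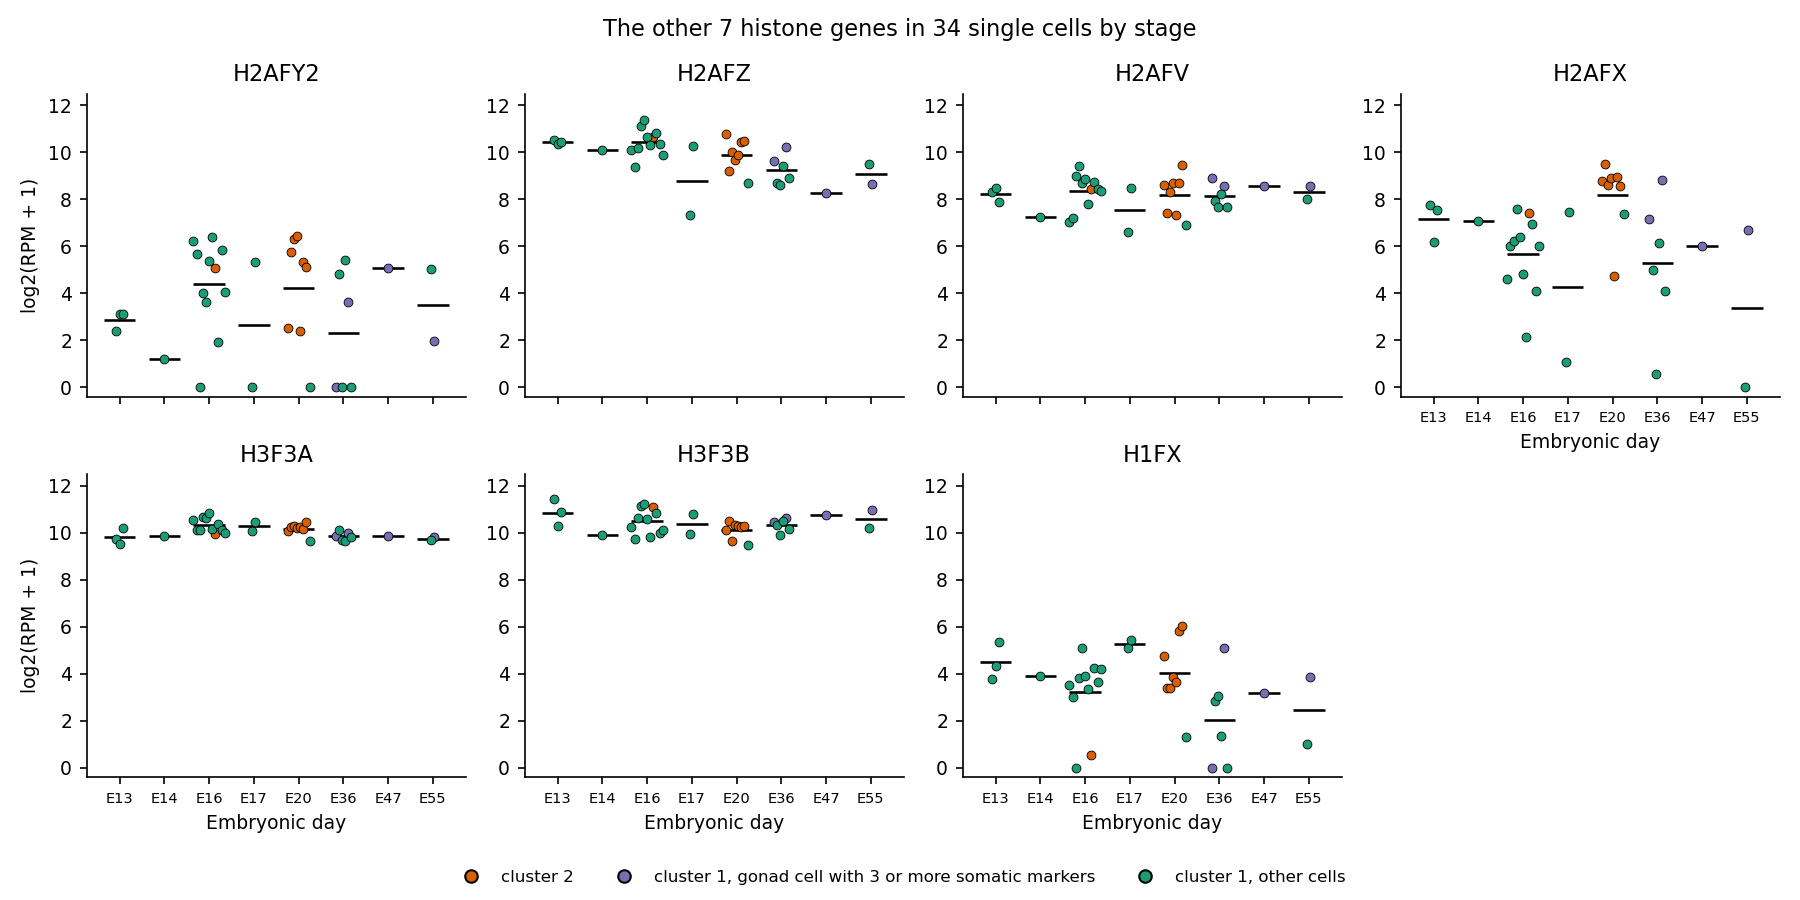
Levels of the other 7 genes as log2(RPM + 1) in each of 34 single cells by embryonic day, with a bar at each stage mean and the same colours by cluster. H3F3A, H3F3B, H2AFZ and H2AFV are high in every cell, and H2AFX peaks in E20 cells.

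The H3.3 genes varied least. H3F3A (chromosome 1) ran from 745 to 1862 RPM over all cells and H3F3B (chromosome 16) from 712 to 2781 RPM. Stage means of H3F3A were 930 ± 236 RPM at E13, 938 RPM at E14, 1316 ± 291 RPM at E16, 1253 ± 237 RPM at E17, 1167 ± 174 RPM at E20, 936 ± 112 RPM at E36, 934 RPM at E47 and 870 ± 66.5 RPM at E55. Those of H3F3B were 1967 ± 771, 966, 1542 ± 563, 1385 ± 569, 1146 ± 257, 1319 ± 229, 1762 and 1615 ± 597 RPM in the same order. Gonad and embryo cells differed by -0.36 in H3F3A (921 ± 96.4 RPM and 1202 ± 264 RPM) and by 0.06 in H3F3B (1434 ± 330 RPM and 1431 ± 541 RPM). Both genes encode the same protein, and reads of both together averaged 2355 ± 366 RPM in the gonad and 2632 ± 664 RPM in the embryo. H3F3A supplied 39.7 ± 5.2% of them in gonad cells and 46.8 ± 8.4% in embryo cells. The embryo stages were not alike in this, since the E13 cells had 33.3 ± 8.6%, below the gonad mean. Both have processed copies in primate genomes, so the counts of each gene are uncertain where reads match a copy.

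H1FX, the gene for linker histone H1.10, was low throughout, and is placed on chromosome 11 in the table but on 2 in RefSeq. The E13 cells had 12.7, 19.3 and 39.99 RPM, the E14 cell 13.9 RPM and the E17 cells 33.6 and 42.5 RPM. The lowest, median and highest were 0, 11.6 and 33.8 RPM at E16, 1.48, 12.7 and 65.3 RPM at E20, and 0, 3.85 and 33.6 RPM at E36. The E47 cell had 8.16 RPM and the E55 cells 1.02 and 13.8 RPM. Gonad cells averaged 7.96 ± 10.7 RPM and embryo cells 19.7 ± 16.7 RPM, a difference of -1.55, and -3.01 within the code MS11. The E20 cells (24.2 ± 23.6 RPM) and E16 cells (12.4 ± 9.3 RPM) differed by 0.81, and by 1.203 without E20 cell 8 or 1.0029 without E16 cell 5. The E16 cells of cluster 1 (13.6 ± 8.84 RPM) and the E13 cells (24.01 ± 14.2 RPM) differed by -1.0001, which shrank to -0.57 without E13 cell 3 and to between -0.99 and -0.61 without E16 cell 2, 3 or 7.

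Set side by side, 4 of the 8 genes (H2AFY2, H2AFZ, H2AFX and H1FX) were lower by 2-fold or more in the gonad than in the embryo and 0 were higher. Of the 8827 genes compared, 30.6% differed that much, 19.7% lower and 10.9% higher, with a median of -0.12. The cells of gonad and embryo overlapped for all 8 members, and did not overlap for 0.0113% of genes. The 4 became 2 without the E20 cells, where 10.3% of all genes were higher and 20.5% lower. Within the code MS11 the 4 became 1, with 27.6% of all genes higher and 27.6% lower. Within cluster 1, H2AFZ (-1.01) and H1FX (-1.50) stayed lower, and H2AFY2 (-0.55) and H2AFX (-0.90) fell under 2-fold. H2AFY was higher there (1.0024), and stood at -0.77 with the gonad cells with somatic markers also left out. Of 8548 genes compared within cluster 1, 12.1% were higher and 18.5% lower. Between E20 and E16, H2AFY and H2AFX were higher by 2-fold or more and 0 of the 8 lower, against 17.8% of 9180 genes higher and 24.0% lower (41.9% in all), with a median of -0.14. All 8 members overlapped there, and 0.327% of genes did not. Between E36 and the E16 cells of cluster 1, H2AFY2 and H2AFZ of the 7 genes that passed the filter were lower and 0 higher, against 34.2% and 11.3% of 8401 genes (45.4% in all) with a median of -0.44, and H1FX had a difference of -1.43 but did not pass. All 8 members overlapped there, and 1.81% of genes did not. Between the E16 cells of cluster 1 and E13, H2AFY2 was higher and H2AFX and H1FX lower among 7 that passed, against 23.6% and 21.7% of 8663 genes (45.4% in all) with a median of -0.0078, and H2AFY did not pass. All 8 members overlapped in that comparison, and 5.90% of genes did not. These comparisons share the E16 cells, and the first holds the cells of all others. Scaling by the median of ratios in place of the total left the direction of each call as given, with H1FX between E16 and E13 then at -0.96.

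**Figure D4:**
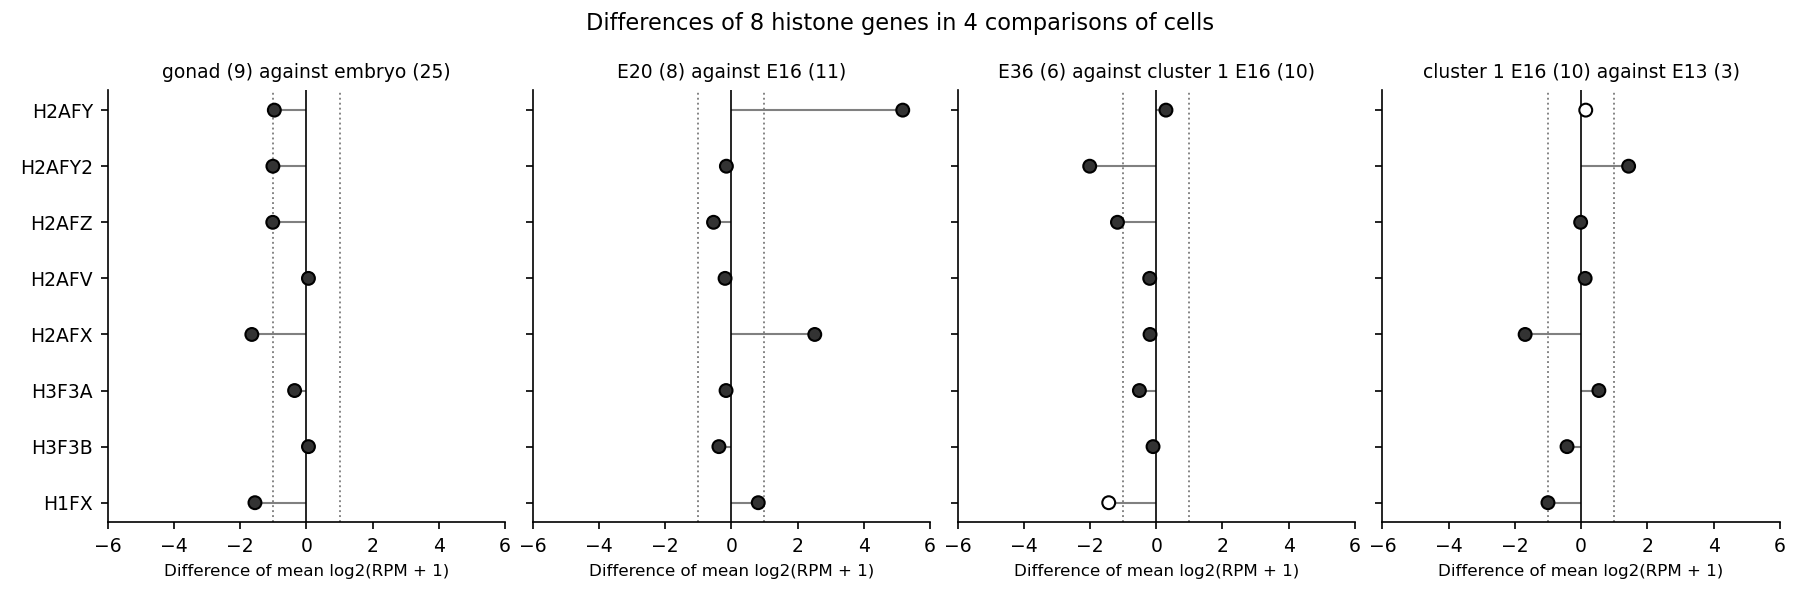
Difference of mean log2(RPM + 1) for the 8 genes in 4 comparisons, the first-named group minus the second, with the number of cells in parentheses. Dotted lines mark 2-fold, and open circles mark genes that did not reach a mean of 15 RPM in either group. H2AFY stands at 5.18 and H2AFX at 2.52 between E20 and E16.

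The span between the highest and lowest stage mean on the log2(RPM + 1) scale was 6.79 for H2AFY, 4.83 for H2AFX, 3.87 for H2AFY2, 3.22 for H1FX, 2.17 for H2AFZ, 1.31 for H2AFV, 0.95 for H3F3B and 0.57 for H3F3A. Over the 4 stages with at least 3 cells it was 5.84 for H2AFY, 2.88 for H2AFX and 2.43 for H1FX, and at most 2.08 for the others. H2AFY was lowest at E13 and highest at E20 among these stages. The only other member with its highest mean log2 level there at E20 was H2AFX. In mean RPM, H2AFY2 (37.5 at E20 and 34.7 at E16) and H1FX (24.15 at E20 and 24.01 at E13) were also highest at E20 among these stages, by less than their SD.

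Across the 34 cells, Spearman's rho of the other 7 members with H2AFY ran from 0.019 for H3F3B to 0.48 for H2AFX. In the 22 cells of cluster 1 with fewer than 3 somatic gonad markers, the rho of H2AFX with H2AFY was 0.13. These cells share stage and label code within groups, so the values are descriptions. Among those 22 cells, the members that moved together most were H2AFZ with H2AFV (0.73), H2AFV with H3F3B (0.71) and H2AFZ with H3F3B (0.69). The mean level of 20 proliferation genes had a rho of 0.82 with H2AFZ, 0.75 with H2AFX, 0.63 with H3F3B and 0.63 with H2AFV in them, and 0.12 with H2AFY. All values of a cell share its total, and rho of H2AFY with depth over 34 cells was -0.18 and with the number of genes detected 0.46.

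The genes whose pattern over the 34 cells was most like that of H2AFY, among 3422 genes with a symbol and a mean of at least 50 RPM, were TMEM98 (rho 0.83), the mRNA decay factor ZFP36L1 (0.80), the growth factor MDK (0.79), the matrix proteoglycan VCAN (0.79), the RNA-binding protein PCBP1 (0.77), the FGF-induced phosphatase DUSP6 (0.76), B2M (0.76), the light chain of class I molecules, and the imprinted gene MEST (0.74). VCAN is 1 of the 12 mesoderm markers. The 8 cells of cluster 2 averaged 211 ± 87.8 RPM of TMEM98, the 4 gonad cells with somatic markers 82.0 ± 71.6 RPM and the other 22 cells 31.2 ± 37.5 RPM. B2M averaged 564 ± 403, 109 ± 108 and 15.4 ± 24.6 RPM in the same order, and DUSP6 295 ± 276, 7.65 ± 13.7 and 0.436 ± 0.532 RPM. DUSP6 was thus high in cluster 2 and low in the gonad cells, whereas MEST, at 229 ± 172, 183 ± 217 and 23.0 ± 29.0 RPM, was high in both. The least like genes were RPL27 (-0.75), RPL37 (-0.75) and RPL34 (-0.74), which encode proteins of the large ribosomal subunit, and NCRNA00219 (-0.73). RPL37 averaged 1586 ± 327 RPM in cluster 2, 4245 ± 519 RPM in the gonad cells with somatic markers and 4485 ± 1211 RPM in the other 22 cells.

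Genes that handle these histones were read from 7 lists, whose counts stand against 19.7% of all genes lower and 10.9% higher in gonad against embryo cells. In gonad against embryo cells, 3 of 4 genes of the centromeric histone list were lower by 2-fold or more (median -1.64): CENPA, the centromeric H3 itself (9.83 ± 23.3 RPM in the gonad and 46.2 ± 51.1 RPM in the embryo), its chaperone HJURP (10 ± 16.2 and 50.9 ± 72.4 RPM) and OIP5. Of 13 genes for H2A.Z exchange 2 were lower and 0 higher (median -0.18), and these were ANP32E, which removes H2A.Z (84.7 ± 65.4 and 168 ± 68.6 RPM), and TRRAP (64.5 ± 45.4 and 104 ± 68.7 RPM). Of 8 genes of H2AX signalling 2 were lower and 1 higher (median -0.32). The repair protein BRCA1 averaged 35.98 ± 48.8 RPM in the gonad and 70.4 ± 45.9 RPM in the embryo, ATR 28.1 ± 21.7 and 61.6 ± 51.2 RPM, and RNF168, the higher one, 15.2 ± 21.1 and 5.11 ± 9.13 RPM. Of 11 linker histone partners and competitors 1 was lower, HMGB1 (245 ± 145 and 544 ± 330 RPM), and 1 higher, HMGN3 (133 ± 139 and 60.6 ± 44.1 RPM), with a median of -0.37. Of 6 H3.3 deposition genes UBN2, a subunit of the HIRA complex, was higher (47.7 ± 32.2 and 23.3 ± 21.7 RPM, list median 0.01). Of 7 macroH2A partners CUL3, a ubiquitin ligase scaffold, was higher (158 ± 58.0 and 76.8 ± 49.9 RPM, list median -0.05). Of 11 replication-coupled assembly genes HAT1 was higher (125 ± 56.1 and 89.5 ± 71.7 RPM) and CHAF1A lower (40.03 ± 47.01 and 63.7 ± 39.8 RPM), with a median of -0.04.

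Beside these, the gonad was lower in 11 of 20 proliferation genes by 2-fold or more and higher in 0 (median -1.16), including MCM3, CCNB1, RRM2 and BUB1. The median over cells of the list's mean log2 level was 7.33 at E13, 7.08 at E14, 6.64 at E16, 4.83 at E17, 6.97 at E20, 4.71 at E36, 5.06 at E47 and 6.26 at E55. In gonad against embryo cells the proliferation and centromeric lists had medians below 0, and H2AFZ and H2AFX were lower. Between E20 and E16 the proliferation list had a median of 0.58 and the centromeric list one of -0.50. H2AFX differed there by 2.52 and H2AFZ by -0.54. The part of cell division in these differences was not tested. E17 cell 1, with the lowest H2AFZ of all, also had the lowest proliferation mean, at 2.61. It had the fewest genes at 15 RPM or more of all cells, 5102, against 8106 in E16 cell 8, although its depth was 2678933 reads. Whether the quality of that library lowered its values was not tested.

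Between E20 and E16, where 17.8% of all genes were higher and 24.0% lower, 3 of 11 linker histone partners and competitors were higher and 1 lower (median 0.31). HMGA2, an architectural protein that competes with linker histones for DNA, averaged 621 ± 500 RPM at E20 and 30.8 ± 74.8 RPM at E16, with 15 RPM or more in 7 of 8 E20 cells and 2 of 11 E16 cells. HMGA1 averaged 631 ± 290 and 284 ± 105 RPM, the chaperone NAP1L1 1192 ± 520 and 547 ± 136 RPM, and HMGN3, the lower one, 49.1 ± 44.9 and 77.7 ± 38.7 RPM. Of 10 replication-coupled assembly genes 1 was higher and 3 lower (median -0.25). SLBP, which binds the stem-loop of canonical histone messages, averaged 220 ± 94.0 RPM at E20 and 85.9 ± 50.9 RPM at E16, and NPAT, an activator of their transcription, 5.11 ± 5.74 and 63.5 ± 36.7 RPM. Of 6 H3.3 deposition genes DEK was higher (382 ± 194 and 195 ± 110 RPM) and DAXX and UBN1 lower (median -0.40). Of 13 H2A.Z exchange genes ACTR6, DMAP1 and ING3 were lower and 0 higher (median 0.02), and of 7 genes of H2AX signalling ATR and RNF8 were lower and 0 higher (median -0.18). CUL3 was the 1 lower gene of 7 macroH2A partners (median -0.27), and MIS18A that of 4 centromeric genes (median -0.50). Of 20 proliferation genes 4 were higher and 0 lower (median 0.58).

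Between E36 and the E16 cells of cluster 1, 34.2% of all genes compared were lower and 11.3% higher. Of 4 centromeric genes 3 were lower (median -1.87), with CENPA at 2.75 ± 5.36 RPM in E36 cells and 33.1 ± 28.9 RPM in E16 cells. Of 8 genes of H2AX signalling 3 were lower and 1 higher (median -0.58), of 11 replication-coupled assembly genes 4 lower and 0 higher (median -0.52), of 13 H2A.Z exchange genes 3 lower and 0 higher (median -0.06), and of 7 macroH2A partners 2 lower and 0 higher (median 0.12). Of 6 H3.3 deposition genes UBN2 was higher and UBN1 lower (median -0.10). Among 11 linker histone partners and competitors HMGB1 (200 ± 156 RPM in E36 cells and 453 ± 148 RPM in E16 cells) and HMGB2 were lower, and HMGA2 was higher through 2 of the 6 E36 cells (136 ± 248 and 8.91 ± 19.6 RPM, list median 0.28). Of 20 proliferation genes 13 were lower and 0 higher (median -1.50).

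Between the E16 cells of cluster 1 and the E13 cells, where 23.6% of all genes were higher and 21.7% lower, 2 of 13 H2A.Z exchange genes were higher, ACTR6 and YEATS4, and 4 lower, RUVBL2, VPS72, ZNHIT1 and DMAP1 (median -0.37). VPS72, the subunit that holds H2A.Z, averaged 86.0 ± 50.5 RPM in E16 cells and 191 ± 61.5 RPM in E13 cells. Of 6 H3.3 deposition genes DEK (185 ± 110 and 46.1 ± 13.4 RPM) and ASF1A were higher and 0 lower (median -0.04). Of 10 linker histone partners and competitors HMGB2 (357 ± 294 and 131 ± 96.5 RPM) and HMGN3 were higher and NAP1L4 lower (median -0.07). Of 4 centromeric genes CENPA and OIP5 were lower and 0 higher (median -1.20), of 8 genes of H2AX signalling ATR was higher and 0 lower (median 0.23), of 11 replication-coupled assembly genes TONSL was lower and 0 higher (median -0.27), and of 7 macroH2A partners 0 passed 2-fold either way (median -0.06). Of 20 proliferation genes 1 was higher and 7 lower (median -0.73).

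The other 54 histone genes of the table were mostly low: 16 of them reached a mean of 15 RPM at any stage. Messages of the clustered genes mostly lack poly(A) tails, and how far reads at 3′ ends capture such messages was not tested. Their levels and differences here may therefore not stand for all of their messages. HIST1H2BK (chromosome 4), an H2B gene, had the clearest course among these: its stage means were 148 ± 36.8 RPM at E13, 88.7 RPM at E14, 26.3 ± 36.02 RPM at E16, 7.68 ± 10.9 RPM at E17, 23.9 ± 35.6 RPM at E20, 175 ± 59.3 RPM at E36, 220 RPM at E47 and 79.9 ± 91.4 RPM at E55. Its means were thus lowest from E16 to E20. It reached 15 RPM in 9 of 9 gonad cells and in 15 of 25 embryo cells (159 ± 73.9 and 41.2 ± 53.4 RPM, a difference of 3.303). The clustered linker histone gene HIST1H1C averaged 86.4 ± 62.4 RPM in E36 cells and 107 ± 212 RPM in the E16 cells of cluster 1, a difference of 3.02 on the log2 scale although the mean RPM was lower at E36, because 6 of 6 E36 cells and 4 of 10 E16 cells reached 15 RPM. HIST3H2A averaged 89.6 ± 95.7 RPM in E16 cells of cluster 1 and 288 ± 88.5 RPM in E13 cells.

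Of the 8 other histone genes that passed the filter in gonad against embryo cells, 3 were higher (HIST1H2BK, HIST1H1C and HIST2H2BE) and 2 lower (CENPA and HIST1H4C), with a median of 0.95, against 10.9% of all genes higher and 19.7% lower. Of 8 between E36 and the E16 cells of cluster 1, 4 were higher and 2 lower (median 1.402), against 11.3% and 34.2% of all genes. Of 8 between E20 and E16, HIST1H2BD and HIST1H4C were lower and 0 higher (median -0.20), against 24.0% and 17.8% of all genes. Of 9 between the E16 cells of cluster 1 and E13, 1 was higher and 7 lower (median -1.76), against 23.6% and 21.7% of all genes. Clustered histone genes have near-identical copies, so reads may be split or shared between them.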

How the data were processed

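RNA of 34 single cells was reverse transcribed, amplified and made into libraries for the SOLiD system, per the labels' protocols. The series' design text names the method as SC3-seq, which reads transcript 3′ ends. Tools named, with no role, in the submitters' processing notes are TopHat 1.4.1, Cufflinks 2.2.0 and cutadapt 1.3. Build and annotation: not given in the sources used here. Per the labels and file, 1 table was deposited by the authors, whose name gives RPM, and its deposited values are log2(RPM + 1): back-transformed columns summed to between 992085 and 995711. Reads per cell were recovered from the step between low values, of which 99.7% to 100% were whole within 0.1 read, giving a median depth of 2001689 reads.

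A sample here is a single cell whose animal the labels do not name, and a stage was therefore treated as 1 sample, with no test. Differences, folds and Poisson intervals were computed in Python 3.11.15 with pandas 2.3.3, numpy 2.4.6 and scipy 1.17.1, figures were drawn with matplotlib 3.10.9, and the steps were checked on simulated data. Cells were clustered by Ward linkage on the 1000 most variable genes with a mean of 15 RPM or more, without the 9 members, into 2 clusters. No doublet caller was run. The 8 members described matched RefSeq by gene ID, under the newer symbols MACROH2A1, MACROH2A2, H2AZ1, H2AZ2, H2AX, H3-3A, H3-3B and H1-10.

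The members, marker lists and pathway lists were chosen with earlier results of these data known. Of the 9 members 1, and some genes of the lists, are not reported here. From each list up to 4 genes per direction past 2-fold with the highest level could be named, with the 8 genes most like H2AFY and the 4 least like it, and other histone genes that averaged 15 RPM or more at a stage. Alternatives were a pseudocount of 10, the ratio of mean RPM, medians over cells, no filter or one of 50 RPM, median-of-ratios scaling, thinning of reads to the shallowest cell, leaving out each cell, and subsets by cluster, marker or label code.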

Additional observations from a re-analysis of the deposited data

Results flagged for a closer look

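Within E20 and E36, the stages with between 4 and 10 cells, 3 values passed the 95% limit of Dixon's ratio of gap to range. For normally distributed values chance passes it in about 1 of 20 groups, and the distribution was not checked. Of 16 groups screened, the 3 values were H2AFY in E20 cell 8 at 1.844 RPM (nearest 169 RPM), H2AFX in E20 cell 5 at 25.28 RPM (nearest 167 RPM) and H2AFY in E36 cell 5 at 113.8 RPM (nearest 1.24 RPM). Because H2AFY was chosen with its stage pattern known, its flagged values are a description and no test. E20 cell 8 is the E20 cell outside cluster 2 and carries the label code of the E16 cells. E36 cell 5 held 6 of 12 gonadal somatic markers at 15 RPM or more. E20 cell 5 had a mean log2 level of the proliferation genes of 6.91, inside the range of the other E20 cells (6.24 to 8.04).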

How the results depend on the processing

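No paired analysis was possible because the numbers of the cells are in accession order and pair nothing. Of 928 differences of single members under alternatives, 918 moved by less than the spread between cells, 6 moved by more, and 4 that were past 2-fold turned round. Those that turned were H2AFY2 (0.22), H2AFZ (0.31) and H2AFX (0.67) in gonad against embryo cells within the code MS11, and H2AFY between E20 and E16 within MS09 (-0.42), where E20 is 1 cell. The cause of these turns was not tested. Most of the 928 left out only 1 cell, which by arithmetic shifts a group mean by less than the spread of its cells. The 918 are therefore no measure of steadiness. In gonad against embryo cells within cluster 1, they include H2AFY, which went from -0.97 to 1.0024, and H2AFY2, which fell under 2-fold (-0.55). The count of 4 members past 2-fold in gonad against embryo cells became 2 with a pseudocount of 10, 2 by the ratio of mean RPM, 2 with a filter of 50 RPM, 1 within MS11 and 2 without the E20 cells, and 2 to 5 when 1 cell was left out. The 2 between E20 and E16 became 5 within MS09, and 2 to 3 when 1 cell was left out. Within MS09, 26.8% of all genes were higher and 39.5% lower. The 2 between E36 and E16 became 1 with a pseudocount of 10 and 1 with a filter of 50 RPM (2 to 3 when 1 cell was left out), and the 3 between E16 and E13 became 1 with that filter (2 to 3). A filter of 50 RPM leaves fewer members to count. Of all genes in gonad against embryo cells, 3.6% were higher and 5.8% lower with a pseudocount of 10. By the ratio of mean RPM these shares were 6.97% and 15.1%, with the filter of 50 RPM 11.1% and 14.9%, and within MS11 27.6% and 27.6%. The pathway counts take in the 7 lists and the proliferation list. In gonad against embryo cells, their 25 genes past 2-fold became 15 with a pseudocount of 10 and 40 within MS11 (22 to 29 when 1 cell was left out). The 22 between E20 and E16 became 14 with a pseudocount of 10, 14 by the ratio of mean RPM and 39 within MS09 (19 to 26). The 34 between E36 and E16 became 20 with a pseudocount of 10. Proliferation genes made up 11 of the 25, 4 of the 22 and 13 of the 34. With that pseudocount, 8.95% of all genes were higher and 10.2% lower between E20 and E16, and 4.99% and 16.2% between E36 and E16. Of the 8 genes most like H2AFY, 5 were among the first 8 by Pearson's r and 3 within cluster 1. The split into clusters was the same with 500 or 2000 genes or average linkage, alternatives chosen after seeing the data, as were the subsets that combine cluster and marker. Over all genes, the split between E20 and E16 was 18.5% higher and 14.8% lower by the ratio of mean RPM. Depth limits H2AFY in low cells and H1FX, where values rest on few reads.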
